A study of Homo sapiens with 16 samples.

Results

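Chemokine, interleukin and interleukin receptor transcripts were measured by RNA-Seq in 2 BRAF inhibitor-resistant (BRAFi-R) human melanoma cell lines, 451Lu-R, which the study describes as MITFhi/AXLlo, and 1205Lu-R, which it describes as MITFlo/AXLhi. The genes were chosen by symbol: every protein-coding gene named CXCL or CCL with a number, CX3CL1, or IL with a number. This rule took 129 genes of the GENCODE 44 annotation, of which 105 are among the 34228 genes of the table of counts, and the other 24 were not analysed here. Cells of each line received either the vehicle DMSO or 2.5 µM corin for 24 hours, with 2 libraries in each of the 4 groups. Corin is a bivalent inhibitor of the CoREST complex, a repressor that carries the histone deacetylases HDAC1 and HDAC2 and the histone demethylase LSD1. All groups carry resistance to BRAF inhibition: per the study's methods, resistant lines were kept in medium with 5 µM of the BRAF inhibitor PLX4032. None of these 8 libraries belongs to the study's groups labelled with PLX4032, and whether the drug was in the medium during the 24 hours is not given in the sources used here. Each condition is represented by a cell line rather than by a set of tumors, 451Lu-R was obtained from another laboratory while 1205Lu-R was made in that of the authors, and the sources used here do not say whether the 2 libraries of a group came from separate cultures. The p-values below therefore measure only the spread between these libraries, which may be technical. Since whole cultures were sequenced, fewer cells expressing a gene and less RNA of it per cell cannot be told apart.

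Chemokines are small secreted proteins that direct cell migration through G protein-coupled receptors, and they are grouped by the spacing of their first cysteines into CXC, CC and CX3C types. Interleukins are secreted or membrane-bound signals between cells, most of which act through receptors made of a specific chain and a shared signaling chain: gp130 (IL6ST) for the IL-6 family, IL1RAP for the IL-1 family, and the common gamma chain (IL2RG) or the common beta chain (CSF2RB) for 2 further families. Tumor cells, melanoma cells among them, can themselves produce such factors, CXCL8 and IL6 being well-known examples, and can carry receptors for them.

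The libraries held between 9516687 and 11797788 estimated counts. Levels are given as CPM (counts scaled to the library total) and 3 counts (0.254 to 0.315 CPM, by library) were taken as the floor of detection. Replicate libraries lay close together: the chi-square of their counts over all genes, divided by its degrees of freedom, was 1.34 to 1.41 in the 4 groups. The lineage markers separated the lines: 7 melanocyte genes summed to between 13239 and 13311 CPM in the 451Lu-R DMSO libraries and to between 7.25 and 8.38 CPM in those of 1205Lu-R. The defining factor SOX10 had 0 counts in 1205Lu-R. With DMSO 4 genes of the invasive state (AXL, NGFR, WNT5A and EGFR) summed to between 8.02 and 8.07 CPM in 451Lu-R and to between 1251 and 1265 CPM in 1205Lu-R. With corin the melanocyte genes summed to between 11399 and 11441 CPM in 451Lu-R and to between 16.7 and 19.1 CPM in 1205Lu-R. The invasive genes with corin summed to between 371 and 379 CPM in 451Lu-R and to between 803 and 815 CPM in 1205Lu-R, so this gap was smaller than with DMSO. Of 8 leukocyte markers 6 were in the table, PTPRC and CD79A stayed at the floor in every library, and the list summed to 67.0 and 70.7 CPM in 451Lu-R with DMSO, 95.1 and 95.2 CPM with corin, 10.6 and 11.0 in 1205Lu-R with DMSO, and 13.96 and 15.8 CPM with corin. Markers of endothelium (4 genes) were at 9.08 and 10.9 CPM with DMSO against 70.5 and 72.9 CPM with corin in 451Lu-R, and at 11.2 and 11.7 CPM against 46.6 and 51.9 CPM in 1205Lu-R. Markers of fibroblasts (4 genes) were at 46.7 and 49.99 CPM with DMSO against 147 and 149 CPM with corin in 451Lu-R, and at 139 and 143 CPM against 93.7 and 94.0 CPM in 1205Lu-R. Of 4 keratinocyte markers 3 were in the table, 1 of them at the floor, and their sum lay between 16.7 and 32.5 CPM. These sums rest largely on few genes. In 451Lu-R with DMSO, CD68 of the leukocyte list had a mean of 66.0 CPM and KRT10 of the keratinocyte list 20.8 CPM. The endothelial KDR went from 8.57 to 62.9 CPM with corin in 451Lu-R, where PECAM1 had no count. In 1205Lu-R the fibroblast gene PDGFRB went from 140 to 84.9 CPM with corin, while COL1A1 went from 1.15 to 8.85 CPM and LUM had no count. The part of other cell types in the results below was not tested.

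Of the 105 genes, 37 reached a mean of 5 CPM in at least 1 group, 14 reached 1 CPM but not 5, and 16 were above the floor in some library without reaching 1 CPM. The remaining 38 stayed at the floor in every library, 7 of them with no count at all. Summed over all 105, the family took 612 and 619 CPM in the 451Lu-R DMSO libraries, 962 and 975 with corin, 1278 and 1252 in the 1205Lu-R DMSO libraries, and 2968 and 2973 with corin. The ranges of the 4 groups did not overlap, but a few genes make up much of these sums. IL6ST had means of 97.3 CPM with DMSO and 342 CPM with corin in 451Lu-R, and of 505 and 845 CPM in 1205Lu-R. The IL-6 and IL-12 family ligands, mainly IL11, summed to 67.9 CPM with DMSO and 1019 CPM with corin in 1205Lu-R.

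**Figure D1:**
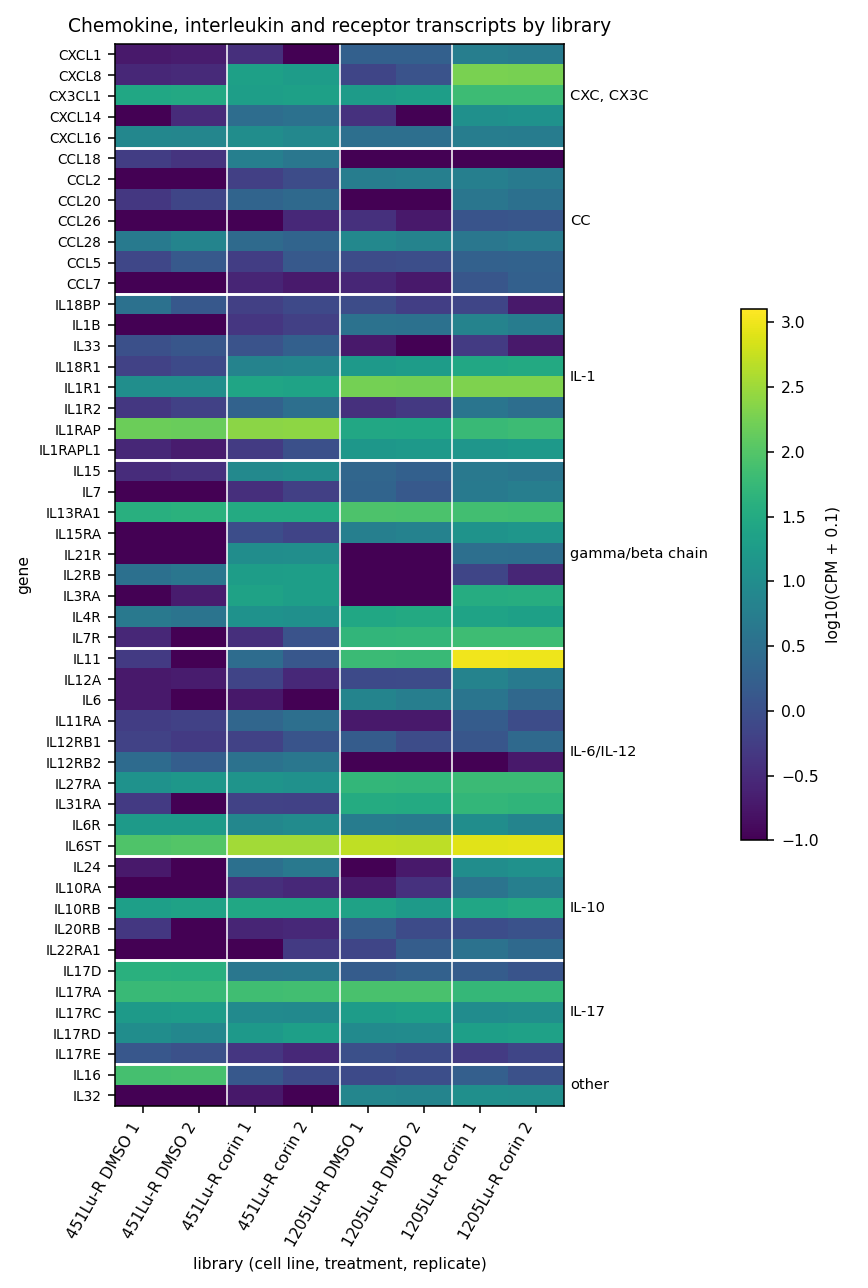
Level of the 51 genes that reached a mean of 1 CPM in at least 1 group, in each of the 8 libraries, as log10(CPM + 0.1) on the color scale, with rows grouped by family and white lines between families and between groups. The 2 libraries of a group look alike, IL11 reaches 1014 CPM in a 1205Lu-R library with corin, and IL3RA and IL21R pass 1 CPM only with corin, in both cell lines.

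A gene was called changed at an adjusted p under 0.01 and a log2 fold change over 1 in either direction, in edgeR's quasi-likelihood test over all genes that passed the filter on low counts. In 451Lu-R, 33 of the 105 genes could be tested, of which 17 were called higher and 4 lower with corin, beside 21.7% higher and 12.9% lower of all 14530 genes tested. In 1205Lu-R, 43 could be tested, of which 20 were called higher and 2 lower, beside 21.2% and 9.53% of 14563. A gene silent with DMSO passes the filter only if corin raises it, so these counts describe the genes and do not set the family apart from others. At an adjusted p under 0.05 alone, 38.6% of all genes were lower in 451Lu-R, and 40.4% were higher and 37.8% lower in 1205Lu-R, whereas at a fold change of 4 and an adjusted p under 0.001 these shares were 2.72%, 11.3% and 1.43%. The median log2 fold change over tested members of 451Lu-R was 1.13, and that of 1205Lu-R 0.75, beside 0.03 over all genes in each line. Both lines allowed a test of 26 members, of which 10 rose with corin in each line, beside 12.2% of the 13200 genes so tested, with the same limit from the filter: CXCL8, CXCL14, CCL20, IL11, IL15, IL24, IL3RA, IL21R, IL1R2 and IL17RD. No member was called in opposite directions in the 2 lines.

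**Figure D2:**
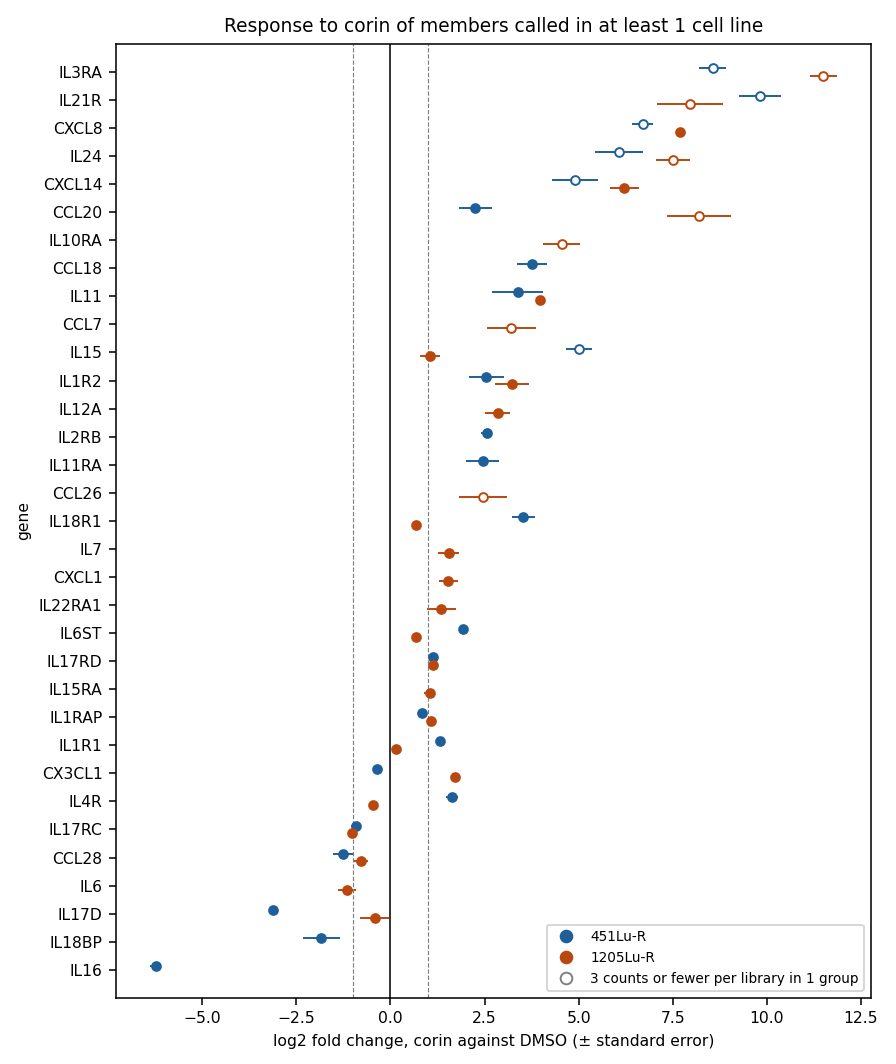
Log2 fold change (corin against DMSO) with its standard error from edgeR for each member called in at least 1 cell line, blue for 451Lu-R and orange for 1205Lu-R. Open circles mark a comparison in which no library of 1 group had more than 3 counts, so that the fitted size depends on the model's prior, and dashed lines mark the threshold of 1. Most points lie to the right of 0, from IL3RA at the top to IL16 and IL17D of 451Lu-R at the lower left.

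Among the CXC chemokines with the ELR motif, which bind CXCR1 and CXCR2 and attract neutrophils, CXCL8 (interleukin-8, chromosome 4, 73740519 to 73743716 in GRCh38) gave the largest signal. Its level was 0.183 and 0.207 CPM in the 451Lu-R DMSO libraries and 21.4 and 18.7 CPM with corin, and 0.633 and 1.04 CPM in the 1205Lu-R DMSO libraries and 188 and 180 CPM with corin. In both lines every corin library lay above every DMSO library, and the corin level of 1205Lu-R was well above that of 451Lu-R. The 451Lu-R DMSO libraries held 2 counts each, so the increase there is given as a ratio of 103.5 (95% counting interval 40.2 to 382), and in 1205Lu-R CXCL8 rose by 7.70 ± 0.11 (SE) on the log2 scale, or 208-fold (edgeR adjusted p = 7.8e-24). The difference between the 2 responses was 0.96 ± 0.84 on the log2 scale and was not called (adjusted p = 0.411).

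CXCL1 stayed at the floor in 451Lu-R in every library. In 1205Lu-R CXCL1 was at 1.72 and 1.69 CPM with DMSO and 5.57 and 4.95 CPM with corin, and rose 2.91-fold. CXCL3 reached 5 counts at most, and CXCL2, CXCL5 and CXCL6 never left the floor. CXCL1, CXCL2 and CXCL3 are close in sequence, so reads may have been divided among them by the quantification. The interferon-inducible CXCL10 and CXCL11 were at the floor in all libraries, as were CXCL12 and CXCL13.

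CXCL14, a chemokine of epithelia, had 0 and 0.22 CPM in 451Lu-R with DMSO and 2.84 and 3.25 CPM with corin. In 1205Lu-R CXCL14 stood at 0.283 and 0 CPM with DMSO and 11.1 and 12.1 CPM with corin. The groups were apart in both lines, with a ratio of 29.3 (95% counting interval 8.28 to 262) in 451Lu-R. For 1205Lu-R the fitted log2 fold change of CXCL14 was 6.21, and it lay between 5.27 without DMSO replicate 2 and 9.89 without DMSO replicate 1, since 1 of these libraries had no count.

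CX3CL1 (fractalkine), a membrane-anchored chemokine that can be shed, behaved differently in the 2 lines. Its level was 27.7 and 29.3 CPM with DMSO and 19.7 and 21.5 CPM with corin in 451Lu-R, and 18.0 and 19.7 CPM with DMSO and 65.8 and 64.0 CPM with corin in 1205Lu-R. It rose 3.27-fold in 1205Lu-R, whereas its log2 fold change of -0.37 in 451Lu-R was below the threshold, and the responses differed by 2.04 ± 0.11 on the log2 scale (adjusted p = 1.9e-12). CXCL16, the other membrane-bound chemokine, was at 7.70 and 7.65 CPM with DMSO and 10.2 and 8.0 CPM with corin in 451Lu-R. The 1205Lu-R libraries held CXCL16 at 3.08 and 3.02 CPM with DMSO and 5.35 and 5.22 CPM with corin. It was called in neither line, with log2 fold changes of 0.35 and 0.72.

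**Figure D3:**
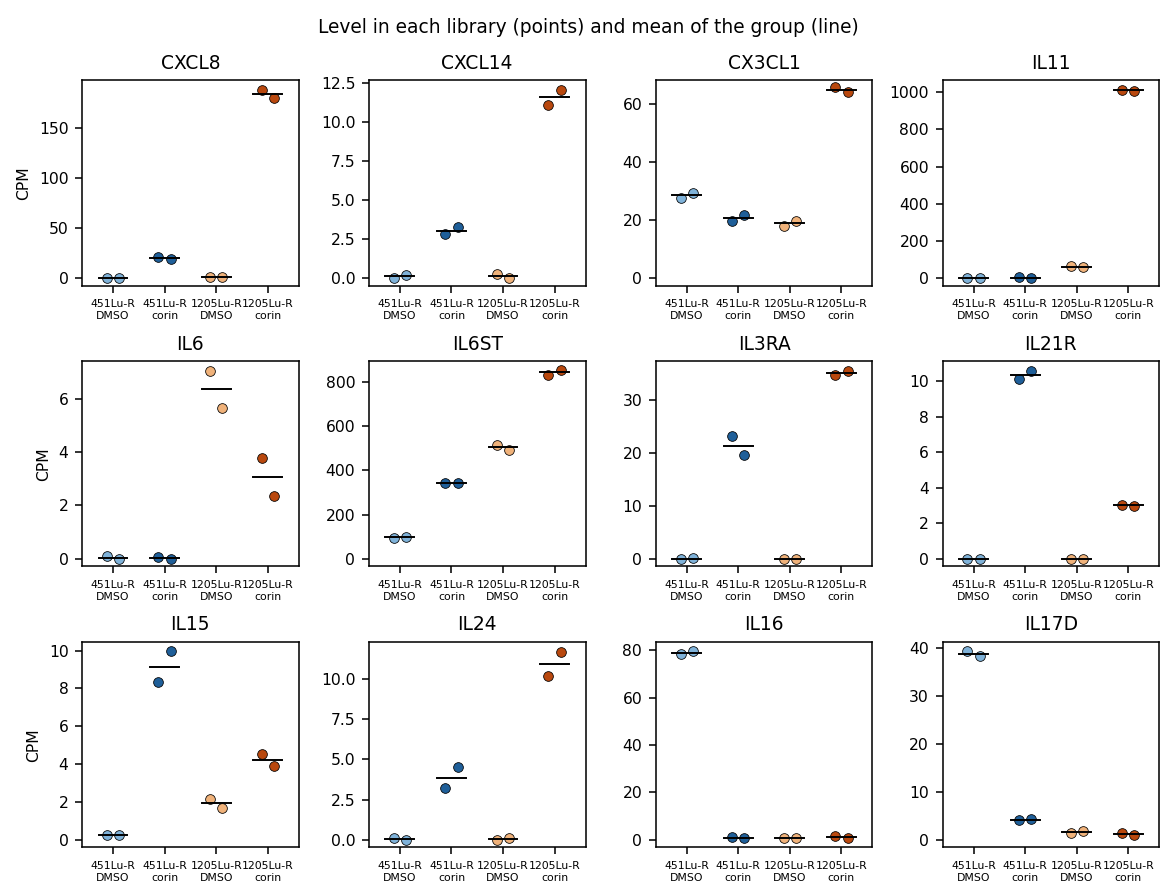
Level in CPM of 12 members in each library (points, with the mean of the group as a line) for 451Lu-R and 1205Lu-R with DMSO or corin, each panel with its own axis from 0. CXCL8, CXCL14, IL3RA, IL21R and IL24 lie near 0 with DMSO in both lines, IL16 and IL17D lie high only in the 451Lu-R DMSO libraries, and the IL6 points of 1205Lu-R are lower with corin than with DMSO.

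Promoter windows were read for 85 of the 105 members from RefSeq (GRCh38.p14), as the 250 bases before each annotated start, and searched on both strands for 5 motifs. The AP-1 motif was searched as the letters TGANTCA and that of NF-kappaB, the factor downstream of IL-1 receptors, as GGNNTTTCC. The cyclic AMP response element (CRE) was searched as TGACGTCA. The TATA box, at which transcription can be positioned, was searched as TATAAA. The GC box, a frequent element of housekeeping promoters, was searched as GGGCGG. The sequences below belong to 5 of the members that rose in both lines, and capitals mark matches to the AP-1, NF-kappaB or TATA box letters. Where GENCODE places a start further upstream, the sequence stops before it (CXCL8) or is limited to 30 bases around the match (CXCL14 and IL3RA). Both of these 30-base stretches lie within the gene as GENCODE bounds it, and distances below are counted from the RefSeq start. The CXCL8 stretch is chr4:73740319-73740518 (plus strand), that of IL11 chr19:55370464-55370713 (minus), that of CXCL14 chr5:135579066-135579095 (minus), that of IL24 chr1:206897193-206897442 (plus) and that of IL3RA chrX:1336744-1336773 (plus).
CXCL8: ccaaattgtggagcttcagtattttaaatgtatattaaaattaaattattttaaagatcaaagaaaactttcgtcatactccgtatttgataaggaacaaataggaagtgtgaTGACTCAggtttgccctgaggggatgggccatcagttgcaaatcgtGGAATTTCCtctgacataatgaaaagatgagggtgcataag
IL11: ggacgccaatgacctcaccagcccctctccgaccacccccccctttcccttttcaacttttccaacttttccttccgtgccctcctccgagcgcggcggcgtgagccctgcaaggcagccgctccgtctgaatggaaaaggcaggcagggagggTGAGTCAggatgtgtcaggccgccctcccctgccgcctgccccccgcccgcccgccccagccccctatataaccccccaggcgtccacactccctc
CXCL14: gagaaatctcagTGAGTCAccgagtggttc
IL24: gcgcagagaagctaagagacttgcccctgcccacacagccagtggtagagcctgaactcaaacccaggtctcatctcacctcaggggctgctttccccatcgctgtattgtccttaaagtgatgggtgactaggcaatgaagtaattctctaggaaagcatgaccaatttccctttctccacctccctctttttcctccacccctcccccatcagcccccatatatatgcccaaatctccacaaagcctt
IL3RA: ccagctggaggtTATAAAacagctcaatcg

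The AP-1 letters begin 137 bases before the start of CXCL8, 96 before that of IL11 and 92 before that of CXCL14, and the NF-kappaB letters of CXCL8 begin 91 bases before its start. The windows of IL24 and IL3RA held no match to the AP-1 or NF-kappaB letters, and that of IL3RA held a TATA box match 29 bases before the start. Of the 9 members that rose in both lines and had a window, 3 held an AP-1 match (CXCL8, CXCL14 and IL11), 3 an NF-kappaB match (CXCL8, CCL20 and IL1R2), 4 a TATA box match, 3 a GC box match and none a CRE match. Among all 27195 genes with a window, 8.02% held an AP-1 match, 6.71% an NF-kappaB match, 13.1% a TATA box match, 2.04% a CRE match and 46.3% a GC box match. Of the 42 members that reached 1 CPM and had a window, 19.0% held an AP-1 match and 26.2% an NF-kappaB match. The 42 include the 9 above, and their shares were 19.0% for the TATA box, 2.38% for the CRE and 61.9% for the GC box. A gene with several annotated starts counted once if any of its windows matched. Several of the GC box matches overlap each other, and no AP-1, NF-kappaB or TATA box match printed here overlaps another. These matches describe the letters and were not tested as binding sites.

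Of 18 CC chemokines, which draw mainly monocytes, lymphocytes and eosinophils, 7 reached 1 CPM. CCL20, the ligand of CCR6, rose in both lines, from 0.367 and 0.621 CPM to 2.02 and 2.40 CPM in 451Lu-R and from 0 in both DMSO libraries to 3.99 and 3.15 CPM in 1205Lu-R, at least 25.6-fold there against a floor of 3 counts over the group. CCL18 was found in 451Lu-R alone: its level was 0.459 and 0.310 CPM with DMSO and 5.85 and 4.20 CPM with corin (13.6-fold), and all 4 libraries of 1205Lu-R had 0 counts, which allows up to 0.315 CPM in a library. CCL7 (10.5-fold, 95% counting interval 3.27 to 53.8) and the eotaxin CCL26 (6.05-fold, 2.07 to 24.1) rose in 1205Lu-R from 3 and 4 counts in all. For CCL26 the call was lost without 1205Lu-R DMSO replicate 2 (log2 fold change 1.90, adjusted p = 0.0533) or corin replicate 1 (2.52, adjusted p = 0.0185).

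The monocyte chemoattractant CCL2 had no count in the 451Lu-R DMSO libraries and 0.509 and 0.800 CPM with corin. In 1205Lu-R CCL2 was at 5.33 and 5.84 CPM with DMSO and 5.88 and 4.86 CPM with corin, where the groups overlapped. CCL28, a mucosal chemokine, was the CC member that fell: its level was 4.78 and 6.90 CPM with DMSO and 2.47 and 2.01 CPM with corin in 451Lu-R (log2 fold change -1.27). This call was lost without 451Lu-R DMSO replicate 2, when the log2 fold change of CCL28 was -0.99. In 1205Lu-R CCL28 was at 8.14 and 6.74 CPM with DMSO and 4.13 and 4.99 CPM with corin, a log2 fold change of -0.79 that stayed below the threshold. CCL5 lay between 0.462 and 1.86 CPM and was called in neither line. CCL16, CCL17, CCL22 and CCL24 stayed below 1 CPM, and CCL1, CCL3, CCL4, CCL4L2, CCL8, CCL25 and CCL27 were at the floor. An unnamed noncoding gene on the same strand shares 97.6% of the exonic length of CCL27, so reads of CCL27 may have been counted there.

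The IL-6 and IL-12 families are described together, and most receptors of the IL-6 family signal through gp130 to JAK kinases and STAT3. The IL-6 family ligand IL11 was the most abundant transcript of the whole set per length of exon in 1205Lu-R with corin, at 377 ± 2.22 RPKM (CPM divided by the exonic length in kb, SD, n = 2). IL11 (chromosome 19, 55364382 to 55370463) was at 61.9 and 59.3 CPM in the 1205Lu-R DMSO libraries and 1014 and 1005 CPM with corin, a rise of 15.8-fold (log2 fold change 3.98 ± 0.04, edgeR adjusted p = 1.3e-26). In 451Lu-R IL11 was near the floor, at 0.397 and 0 CPM with DMSO and 2.72 and 1.20 CPM with corin. The groups of 451Lu-R did not overlap and IL11 was called (log2 fold change 3.39), but the call was lost without 451Lu-R corin replicate 1 (2.66, adjusted p = 0.0109), and the value was 7.43 without DMSO replicate 1 and 2.50 without DMSO replicate 2. The difference between the lines in the response of IL11, 0.55 ± 1.15 on the log2 scale, was not called.

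IL6 itself moved the other way in 1205Lu-R, where it was at 7.05 and 5.65 CPM with DMSO and 3.78 and 2.34 CPM with corin (log2 fold change -1.15). The groups did not overlap, but IL6 lost its call without 1205Lu-R DMSO replicate 1 (-0.99) or corin replicate 2 (-0.82). In 451Lu-R IL6 had at most 1 count in a library. The antisense gene IL6-AS1 overlaps 9.91% of the exonic length of IL6, and in 1205Lu-R it held 24 and 19 counts with DMSO against 15 and 8 counts with corin. IL12A, a subunit of IL-12 and IL-35, rose 7.24-fold in 1205Lu-R, from 0.723 and 0.753 CPM to 6.75 and 4.77 CPM, and had 7 counts at most in a library of 451Lu-R (0.0917 and 0.103 CPM with DMSO, 0.593 and 0.200 CPM with corin). IL23A stayed under 1 CPM and IL12B at the floor.

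Among the receptors of these families, IL6ST (gp130, the shared chain of the IL-6 family, chromosome 5, 55935095 to 55995022) ranked first of the 51 named members per length of exon in 451Lu-R with corin, at 28.4 ± 0.0834 RPKM (SD, n = 2), and in 1205Lu-R with DMSO, at 41.9 ± 1.25 RPKM. In 1205Lu-R with corin IL6ST reached 70.0 ± 1.38 RPKM, and in 451Lu-R with DMSO 8.07 ± 0.258 RPKM. IL6ST was at 95.1 and 99.5 CPM with DMSO and 341 and 343 CPM with corin in 451Lu-R, and at 516 and 494 CPM with DMSO and 833 and 856 CPM with corin in 1205Lu-R. All 4 groups were apart. It rose 3.77-fold in 451Lu-R, the 1.59-fold difference in 1205Lu-R was below the threshold, and the responses differed by -1.28 ± 0.05 on the log2 scale (adjusted p = 1.1e-14).

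IL11RA, the specific receptor chain for IL-11, rose 5.47-fold in 451Lu-R, from 0.459 and 0.517 CPM to 2.12 and 3.0 CPM. In 1205Lu-R IL11RA was not tested, with 1 count in each DMSO library and 14 and 9 with corin, a ratio of 12.1 (95% counting interval 2.99 to 106). An unnamed readthrough gene on the same strand shares 32.5% of the exonic length of IL11RA, so its counts may be divided. IL6R, the chain specific for IL-6, differed between the lines: it was at 17.3 and 17.0 CPM with DMSO and 7.95 and 9.31 CPM with corin in 451Lu-R, and at 5.21 and 4.78 CPM with DMSO and 9.98 and 7.02 CPM with corin in 1205Lu-R. The log2 fold changes of -0.90 and 0.67 were each below the threshold, and their difference was called at 1.53 ± 0.24 (adjusted p = 1.3e-05).

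IL31RA, which pairs with OSMR and lies beside IL6ST on chromosome 5, was at 0.398 and 0 CPM with DMSO and 0.552 and 0.515 CPM with corin in 451Lu-R, and at 33.0 and 32.5 CPM with DMSO and 51.7 and 47.5 CPM with corin in 1205Lu-R (log2 fold change 0.52, not called). IL27RA was at 12.3 and 14.7 CPM with DMSO and 13.2 and 11.8 CPM with corin in 451Lu-R, and at 51.3 and 50.3 CPM with DMSO and 62.1 and 62.4 CPM with corin in 1205Lu-R (0.22, not called). IL12RB2 was seen in 451Lu-R, at 2.58 and 1.57 CPM with DMSO and 3.39 and 4.11 CPM with corin, and had 1 count in all in 1205Lu-R. IL12RB1 lay between 0.389 and 2.44 CPM, and IL23R was at the floor.

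The genes listed with the IL-6 family that do not carry an IL symbol number 10, of which 6 could be tested in each line. In 451Lu-R 5 were called higher and none lower (21.7% and 12.9% of all genes). In 1205Lu-R 3 were called higher and 2 lower (21.2% and 9.53%). A gene of the list without counts under DMSO could be tested only if it was detected with corin, so these counts do not set the list apart. OSMR, the receptor of oncostatin M, rose in both lines, from 34.4 and 35.3 CPM to 108 and 104 CPM in 451Lu-R and from 178 and 185 CPM to 414 and 397 CPM in 1205Lu-R. LIFR rose 4.91-fold in 451Lu-R, to 97.1 and 91.5 CPM, and its 1.75-fold difference in 1205Lu-R was not called. The ligand LIF fell in 1205Lu-R, from 290 and 291 CPM to 65.7 and 67.8 CPM (log2 fold change -2.19), and was at 2.07 CPM or less in every library of 451Lu-R.

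Among the receptors that share the common gamma or beta chain, IL3RA and IL21R were near or at 0 with DMSO and detected with corin in both lines. IL3RA (the alpha chain of the IL-3 receptor, in the pseudoautosomal region of chromosome X, 1336616 to 1382689) had 0 and 1 count in the 451Lu-R DMSO libraries and 273 and 196 counts with corin, and it had no count in the 1205Lu-R DMSO libraries and 330 and 395 counts with corin. These corin libraries stood at 23.1 and 19.6 CPM in 451Lu-R and at 34.7 and 35.5 CPM in 1205Lu-R. The ratio was 442.5 in 451Lu-R (95% counting interval 79.0 to 17510), and IL3RA was at least 254-fold higher with corin in 1205Lu-R. The ligand IL3 had no count in any library, and IL5RA, which like IL3RA pairs with the common beta chain, was at the floor. The common beta chain CSF2RB, examined after these values were seen, had no count with DMSO in either line, 22 and 19 counts with corin in 451Lu-R, and 0 and 1 count with corin in 1205Lu-R.

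IL21R (chromosome 16, 27402174 to 27452042) had no count in any of the 4 DMSO libraries. With corin IL21R was at 10.1 and 10.6 CPM in 451Lu-R and 3.05 and 2.97 CPM in 1205Lu-R, at least 70.8-fold and at least 21.7-fold above the floor of 3 counts over the group. The antisense gene IL21R-AS1 overlaps 23.3% of its exonic length and held fewer than 2 counts in every library. IL2RB, shared by the receptors of IL-2 and IL-15, rose 5.87-fold in 451Lu-R, from 3.21 and 3.93 CPM to 19.2 and 19.9 CPM, while in 1205Lu-R IL2RB had no count with DMSO and 0.630 and 0.180 CPM with corin. IL2RG, the common gamma chain, and IL2RA, IL9R and IL5RA were at the floor in all 8 libraries. An unnamed protein-coding gene on the same strand shares 51.3% of the exonic length of IL2RG, so reads of IL2RG may have been counted there.

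IL15, a cytokine presented to lymphocytes on IL15RA, rose in both lines but from different levels. It was at 0.236 and 0.280 CPM with DMSO and 8.33 and 9.96 CPM with corin in 451Lu-R, a ratio of 35.3 (95% counting interval 15.7 to 116), and at 2.17 and 1.69 CPM with DMSO and 4.51 and 3.92 CPM with corin in 1205Lu-R, 2.07-fold. The responses of IL15 differed by -4.00 ± 0.51 on the log2 scale (adjusted p = 1.0e-06). The call in 1205Lu-R was lost without DMSO replicate 2 (log2 fold change 0.86, adjusted p = 0.0265) or corin replicate 1 (0.95, adjusted p = 0.0137).

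IL15RA had no count with DMSO and 0.848 and 0.600 CPM with corin in 451Lu-R, and was at 5.69 and 6.59 CPM with DMSO and 12.7 and 13.9 CPM with corin in 1205Lu-R. It rose 2.07-fold in 1205Lu-R, a call lost without DMSO replicate 1 (log2 fold change 0.93) or corin replicate 2 (0.97). IL7 had no count with DMSO and 0.254 and 0.50 CPM with corin in 451Lu-R, and it rose 2.93-fold in 1205Lu-R, from 1.99 and 1.32 CPM to 4.73 and 5.49 CPM. Its receptor chain IL7R was at 0.183 and 0 CPM with DMSO and 0.254 and 1.0 CPM with corin in 451Lu-R, and at 49.2 and 52.3 CPM with DMSO and 66.1 and 66.0 CPM with corin in 1205Lu-R (log2 fold change 0.31, not called).

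IL4R, which serves IL-4 and IL-13, rose 3.11-fold in 451Lu-R, from 4.40 and 3.73 CPM to 12.3 and 11.4 CPM. In 1205Lu-R IL4R was at 27.7 and 31.0 CPM with DMSO and 23.6 and 21.4 CPM with corin, a log2 fold change of -0.46 that was not called, and the responses differed by -2.13 ± 0.18 (adjusted p = 2.9e-09). Its partner IL13RA1 was at 39.2 and 41.3 CPM with DMSO and 31.8 and 32.5 CPM with corin in 451Lu-R, and at 89.2 and 85.3 CPM with DMSO and 71.2 and 70.6 CPM with corin in 1205Lu-R. It was lower in every corin library of its line, with log2 fold changes of -0.22 and -0.37 that were below the threshold. IL13RA2 stayed below 1 CPM, and IL4 and IL5 at the floor.

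In the IL-1 family, whose receptors act through MYD88 and IRAK kinases on NF-kappaB, the receptors carried most of the signal. IL1RAP, the accessory chain, was the most abundant member per length in 451Lu-R with DMSO, at 13.1 ± 0.198 RPKM (SD, n = 2). IL1RAP was at 149 and 146 CPM with DMSO and 244 and 249 CPM with corin in 451Lu-R, and at 28.9 and 27.8 CPM with DMSO and 61.0 and 63.8 CPM with corin in 1205Lu-R. It rose 2.09-fold in 1205Lu-R, and its log2 fold change of 0.84 in 451Lu-R was below the threshold. IL1R1, the signaling receptor of IL-1, was at 10.4 and 10.6 CPM with DMSO and 25.3 and 23.8 CPM with corin in 451Lu-R, and at 175 and 172 CPM with DMSO and 203 and 201 CPM with corin in 1205Lu-R. IL1R1 rose 2.50-fold in 451Lu-R, its log2 fold change of 0.15 in 1205Lu-R was not called, and the responses differed by -1.22 ± 0.10 (adjusted p = 2.3e-09).

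IL18R1, the receptor of IL-18, was at 0.550 and 0.724 CPM with DMSO and 6.70 and 7.20 CPM with corin in 451Lu-R, and at 16.4 and 18.5 CPM with DMSO and 28.7 and 30.3 CPM with corin in 1205Lu-R. It rose 11.5-fold in 451Lu-R, while the log2 fold change of 0.68 in 1205Lu-R was below the threshold, and the difference of -2.88 ± 0.30 was called (adjusted p = 6.2e-08). IL1R2, a decoy receptor that binds IL-1 without signaling, rose in both lines, 5.85-fold in 451Lu-R to 1.86 and 3.1 CPM and 9.44-fold in 1205Lu-R to 3.78 and 2.88 CPM. IL1RAPL1, a synaptic relative, was at 0.183 and 0.103 CPM with DMSO and 0.424 and 0.90 CPM with corin in 451Lu-R and at 14.7 and 16.7 CPM with DMSO and 14.4 and 15.7 CPM with corin in 1205Lu-R, where the groups overlapped.

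The IL-1 family ligands were scarce. IL1B had no count with DMSO and 0.339 and 0.50 CPM with corin in 451Lu-R. The 1205Lu-R libraries held IL1B at 3.43 and 3.30 CPM with DMSO and 6.83 and 5.22 CPM with corin, a log2 fold change of 0.75 that was not called. IL33 lay between 0.917 and 1.70 CPM in 451Lu-R and at 0.420 CPM or less in 1205Lu-R. IL18BP, which neutralizes IL-18, fell in 451Lu-R from 3.30 and 1.24 CPM to 0.509 and 0.70 CPM (log2 fold change -1.84). This call was lost without 451Lu-R DMSO replicate 1 (log2 fold change -0.95) or corin replicate 1 (-1.60). The gene NUMA1 on the other strand overlaps 17.6% of the exonic length of IL18BP. IL18, IL1RN, IL37, IL1RL1 and IL1RAPL2 stayed below 1 CPM, and IL1A, IL18RAP, IL1RL2 and the 4 IL36 genes in the table at the floor.

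IL24, a member of the IL-10 family first found in differentiating melanoma cells, appeared with corin in both lines. IL24 (chromosome 1, 206897443 to 206904139) held 1 and 0 counts with DMSO against 38 and 45 counts with corin in 451Lu-R, and 0 and 1 count with DMSO against 97 and 130 counts with corin in 1205Lu-R. These corin libraries stood at 3.22 and 4.5 CPM in 451Lu-R and at 10.2 and 11.7 CPM in 1205Lu-R. The ratios were 78.3 (95% counting interval 13.7 to 3130) and 239 (42.4 to 9467). The opposite-strand gene FCMR overlaps 41.6% of the exonic length of IL24 and held 0 and 1 count with DMSO against 7 and 10 counts with corin in 451Lu-R, and 32 and 19 counts with DMSO against 37 and 39 counts with corin in 1205Lu-R. IL10 and IL19, which lie on the same stretch of chromosome 1, stayed below 1 CPM, and IL20 and IL26 at the floor.

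Of the receptors of the IL-10 family, the shared chain IL10RB was at 20.7 and 23.1 CPM with DMSO and 27.2 and 28.1 CPM with corin in 451Lu-R and at 23.2 and 17.1 CPM with DMSO and 26.5 and 31.8 CPM with corin in 1205Lu-R, with log2 fold changes of 0.43 and 0.47 that were not called. A readthrough with IFNAR2 shares 21.6% of its exonic length. IL10RA rose in 1205Lu-R, from 1 and 3 counts to 35 and 65 (ratio 26.3, 95% counting interval 9.95 to 98.3), and had 3 counts at most in 451Lu-R. IL22RA1, which can pair with IL20RB to bind IL-24, was called in 1205Lu-R (2.55-fold, from 0.633 and 1.51 CPM to 3.36 and 2.43 CPM), a call lost without DMSO replicate 1 (log2 fold change 0.84, adjusted p = 0.0893) or corin replicate 1 (1.11, adjusted p = 0.0498), while the value was 2.07 without DMSO replicate 2. IL20RB was between 0.754 and 1.54 CPM in 1205Lu-R and not called, and IL20RA was at the floor.

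The largest declines among the called members, those of IL16 and IL17D, were in 451Lu-R. IL16, a chemoattractant for CD4+ cells that is released from a larger precursor (chromosome 15, 81159575 to 81314058), was at 78.3 and 79.5 CPM with DMSO and 1.22 and 0.722 CPM with corin in 451Lu-R. All 1205Lu-R libraries held IL16 between 0.723 and 1.66 CPM, where it was not tested on its own. With corin IL16 fell by 6.24 ± 0.14 on the log2 scale (75.6-fold lower in 451Lu-R, edgeR adjusted p = 9.2e-19), and the responses differed by 6.81 ± 0.52 (adjusted p = 4.1e-10). Exons of STARD5 on the other strand overlap 34.9% of the exonic length of IL16. STARD5 held 21 and 22 counts with DMSO against 74 and 48 counts with corin in 451Lu-R. It held 6 and 2 counts with DMSO against 31 and 26 counts with corin in 1205Lu-R, where IL16 did not fall.

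IL17D, the IL-17 family ligand found in this set (chromosome 13, 20702127 to 20723098), was at 39.3 and 38.2 CPM with DMSO and 4.07 and 4.30 CPM with corin in 451Lu-R, and at 1.45 and 1.79 CPM with DMSO and 1.47 and 1.08 CPM with corin in 1205Lu-R. With corin IL17D fell by 3.11 ± 0.12 on the log2 scale (8.64-fold lower in 451Lu-R), its log2 fold change of -0.42 in 1205Lu-R was not called, and the responses differed by 2.65 ± 0.38 (adjusted p = 5.5e-06). An unnamed antisense gene overlaps 36.3% of the exonic length of IL17D, and it held 470 and 382 counts with DMSO against 184 and 162 counts with corin in 451Lu-R, and 36 and 45 counts with DMSO against 91 and 103 counts with corin in 1205Lu-R. Whether the counting used the strand is not given in the sources used here, so reads of the stretches that such pairs share may have been counted for either gene. IL17A, IL17B and IL17C were at the floor.

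Of the 6 receptors of the IL-17 family, IL17RD was called higher in both lines and IL17RC lower in 1205Lu-R. IL17RA was at 59.1 and 58.0 CPM with DMSO and 70.4 and 72.8 CPM with corin in 451Lu-R, and at 82.7 and 85.0 CPM with DMSO and 54.2 and 54.5 CPM with corin in 1205Lu-R. The log2 fold changes of IL17RA, 0.39 and -0.70, were each below the threshold, and the difference of -1.12 ± 0.07 was called, except under scaling by library size alone (-0.91). IL17RD, an inhibitor of fibroblast growth factor signaling, rose 2.19-fold in both lines, from 10.2 and 7.78 CPM to 16.5 and 20.7 CPM in 451Lu-R and from 9.03 and 9.52 CPM to 20.5 and 22.1 CPM in 1205Lu-R. In 451Lu-R the call of IL17RD was lost without DMSO replicate 2 (0.95) or corin replicate 2 (0.98).

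IL17RC was at 17.3 and 18.4 CPM with DMSO and 8.90 and 8.62 CPM with corin in 451Lu-R, and at 18.6 and 20.1 CPM with DMSO and 9.67 and 10.3 CPM with corin in 1205Lu-R. It sat on the threshold: IL17RC was called lower in 1205Lu-R (log2 fold change -1.02), a call lost without DMSO replicate 2 (-0.99) or corin replicate 1 (-0.98), and not called in 451Lu-R (-0.93). An unnamed readthrough gene on the same strand shares 46.5% of its exonic length. IL17RE lay between 0.200 and 1.19 CPM, and IL17RB and IL17REL were at the floor. IL32, a gene of human lymphoid and tumor cells without a mouse counterpart, had 1 count in all in 451Lu-R and was at 7.39 and 7.06 CPM with DMSO and 10.9 and 10.5 CPM with corin in 1205Lu-R (log2 fold change 0.49, not called). IL34 and IL4I1 stayed below 1 CPM.

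Many of these genes lie in clusters, and neighbors did not all follow each other. When members less than 250 kb apart were joined, 55 of the 105 fell into 16 neighborhoods. On chromosome 4, CXCL8 and CXCL1 were detected while CXCL6, between them, stayed at the floor. On chromosome 2, IL1R2, IL1R1 and IL18R1 were expressed, and IL1RL2, between IL1R1 and IL18R1, had no count in any library. On chromosome 16, IL21R, with no count with DMSO, lies next to IL4R, which was expressed in every library.

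**Figure D4:**
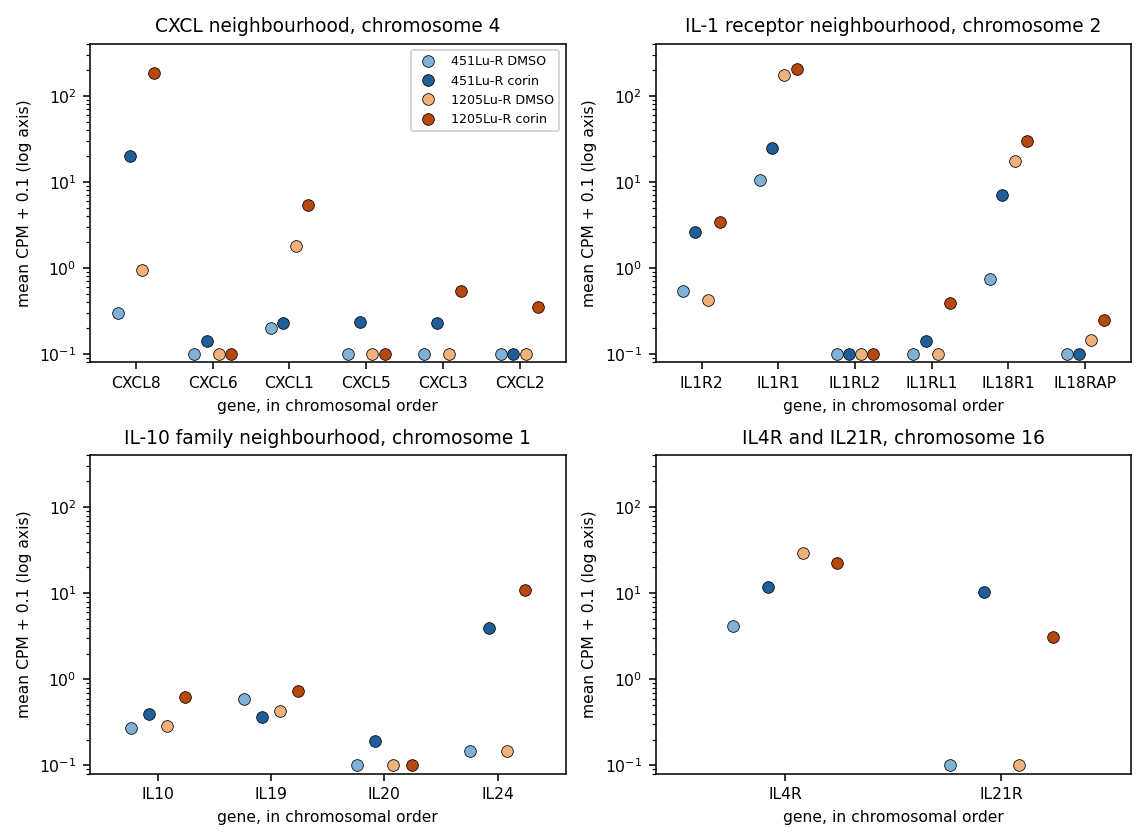
Mean CPM + 0.1 (log axis) of each member of 4 neighborhoods in chromosomal order, for 451Lu-R and 1205Lu-R with DMSO or corin (4 colors, 2 libraries each). Points at 0.1 are group means of 0: CXCL8 stands above its neighbors with corin, IL24 rises from near the bottom while IL10, IL19 and IL20 stay below 1 CPM, and IL4R is present with DMSO where IL21R is not.

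The 2 cell lines were also compared with each other under DMSO, a comparison that shares its DMSO libraries with the comparisons above. Of 33 members tested, 18 were higher and 8 lower in 1205Lu-R than in 451Lu-R, beside 19.3% and 21.3% of all 14104 genes tested (10.6% lower at a fold change of 4 and an adjusted p under 0.001). The other members were too low in both lines to be tested, and a gene at 0 in 1 line passes the filter only through the other, as CCL2, IL15RA, IL32, IL1B and IL7 did, so these counts do not set the family apart either. The members higher in 1205Lu-R comprised the ligands IL11, IL6, IL7, IL15, IL1B, IL32, CCL2 and CXCL1 and the receptors IL6ST, IL27RA, IL31RA, IL7R, IL15RA, IL4R, IL13RA1, IL1R1, IL18R1 and IL1RAPL1. Those lower were IL16, IL17D, IL1RAP, IL6R, IL12RB2, IL2RB, CXCL16 and IL18BP.

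The gaps between the lines ran over a wide range. IL1R1 was 17.7-fold higher in 1205Lu-R (log2 fold change 4.15 ± 0.07), IL6ST 5.59-fold, IL4R 7.70-fold, IL27RA 4.07-fold and IL13RA1 2.34-fold. For genes at the floor in 451Lu-R only a bound or a counting interval can be given: CCL2 was at least 38.2-fold higher, IL15RA at least 42.0-fold, IL32 at least 49.6-fold, IL1B at least 23.1-fold and IL7 at least 11.4-fold, and the ratio was 522 for IL7R (95% counting interval 144 to 4312) and 131 for IL6 (23.1 to 5206). The log2 fold change was 8.30 for IL11 and 7.41 for IL31RA, and because 1 of the 451Lu-R DMSO libraries had no count it was 12.34 and 11.45 without 451Lu-R DMSO replicate 1 and 7.42 and 6.54 without replicate 2.

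In the other direction, IL16 was 92.2-fold, IL17D 22.2-fold, IL1RAP 4.82-fold, IL6R 3.17-fold and CXCL16 2.34-fold lower in 1205Lu-R. IL2RB and IL12RB2 had no count in the 1205Lu-R DMSO libraries and were at least 25.7-fold and at least 15.2-fold lower. IL18BP was lower with a log2 fold change of -1.72, a call lost without 451Lu-R DMSO replicate 1 (-0.84, adjusted p = 0.301) or 1205Lu-R DMSO replicate 2 (-1.38, adjusted p = 0.0219). The other 7 tested members were not called: IL10RB, IL17RC, IL17RD, IL17RE, CCL28, IL17RA (log2 fold change 0.62) and CX3CL1 (-0.49).

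**Figure D5:**
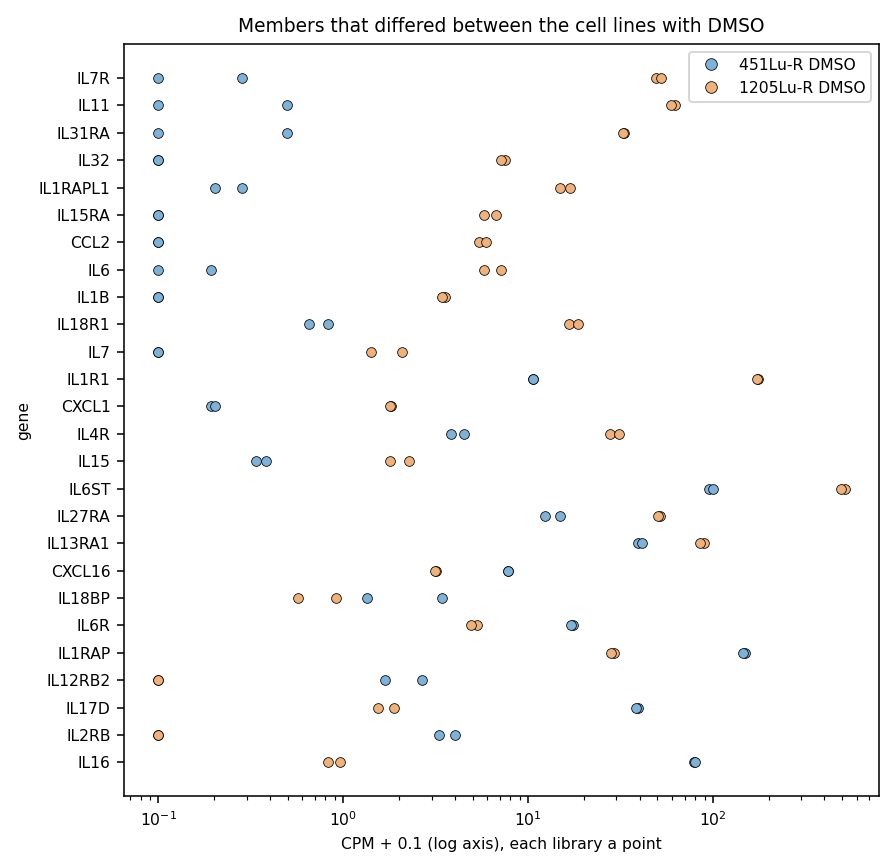
CPM + 0.1 (log axis) of the 26 members called between the cell lines with DMSO, each library a point, blue for 451Lu-R and orange for 1205Lu-R, sorted by the ratio of means. Since only called members are shown, the gap between the points of the 2 lines follows from the selection. The genes run from IL7R at the top, higher in 1205Lu-R, to IL16 at the bottom, higher in 451Lu-R.

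The response to corin was compared directly between the lines with an interaction term. Of 51 members tested, 13 were called, 5 with a greater and 8 with a lower value in 1205Lu-R, beside 15.7% of all 16062 genes tested (7.47% greater, 8.26% lower, and 5.56% either way at a fold change of 4 and an adjusted p under 0.001), and the median difference was -0.01 on the log2 scale for the members as for all genes. The response was greater in 1205Lu-R, or less negative, for CCL20, CX3CL1, IL16, IL17D and IL6R. It was lower in 1205Lu-R for CCL2, IL15, IL15RA, IL17RA, IL18R1, IL1R1, IL4R and IL6ST. For CCL2, IL15RA and CCL20 1 of the DMSO groups had no count, so the size of the difference depends on the model's prior and is no estimate of the gap. For IL15 the 451Lu-R DMSO group was at the floor, with 5.28 counts in all, so the size of its difference rests on few counts. The call on CCL20 was lost without 451Lu-R DMSO replicate 2 (adjusted p = 0.0134), 1205Lu-R DMSO replicate 1 (adjusted p = 0.014) or 1205Lu-R DMSO replicate 2 (adjusted p = 0.0131). The call on IL15RA was lost without 451Lu-R DMSO replicate 1 (adjusted p = 0.0247), 451Lu-R DMSO replicate 2 (adjusted p = 0.0188) or 451Lu-R corin replicate 1 (adjusted p = 0.0103).

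Lists of partner genes were given by counts. Of 20 chemokine receptors in the table, few could be tested: 1 of 2 tested was called higher in 451Lu-R, as were 3 of 4 tested in 1205Lu-R, with none lower, beside 21.7% and 21.2% of all genes called higher. A receptor without counts under DMSO could be tested only if it was detected with corin. CXCR1 and CXCR2, the receptors of CXCL8, were examined after these values were seen, and CXCR2 had 2 counts at most in any library. CXCR1 had no count with DMSO in either line, 15 and 11 counts with corin in 451Lu-R and 10 and 12 counts with corin in 1205Lu-R. ACKR1, which binds many chemokines without signaling, had no count in 451Lu-R and was at 0.904 and 0.847 CPM with DMSO and 2.10 and 2.16 CPM with corin in 1205Lu-R.

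Of the JAK, STAT, SOCS and PIAS genes that carry signals from the interleukin receptors, 5 of 22 tested were called higher and 3 lower in 451Lu-R, and 4 of 21 higher and 3 lower in 1205Lu-R, shares near those of all genes (21.7% and 12.9%, then 21.2% and 9.53%). STAT3 was at 137 CPM in both 451Lu-R DMSO libraries and at 481 and 482 CPM with corin, and at 101 and 110 CPM with DMSO and 204 and 201 CPM with corin in 1205Lu-R. It rose 3.75-fold in 451Lu-R, and its log2 fold change of 0.87 in 1205Lu-R was below the threshold. Of the IL-1 receptor and NF-kappaB genes, 3 of 25 were called higher and 5 lower in 451Lu-R, and 3 of 25 higher and 2 lower in 1205Lu-R, beside the same shares of all genes. IRAK1, the most abundant of them, fell in 451Lu-R (log2 fold change -1.35), and its value in 1205Lu-R was -0.93.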

How the data were processed

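RNA-Seq of 451Lu-R and 1205Lu-R cells with DMSO or corin was analysed from 1 table of 8 libraries, 2 per group. Reads were trimmed by the authors with Trimmomatic and quantified with Salmon against GENCODE 32, and they deposited expected counts (Salmon's estimated counts per gene) without normalization. Tool versions are not given in the sources used here. For the 8 libraries with PLX4032 the 2 deposited tables hold the authors' own log2 fold changes and adjusted p-values, which were not used. Of 34228 gene IDs, 34052 matched GENCODE 44, the source of symbols, coordinates and exonic lengths.

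Estimated counts were rounded and tested with edgeR 4.0.16 in R 4.3.3 (genes kept by filterByExpr, TMM scaling, the 2-sided quasi-likelihood test of glmQLFTest, and Benjamini-Hochberg adjustment over all genes tested). Corin was compared with DMSO within each line and the lines with each other under DMSO, each on 4 libraries, and the difference in response by an interaction term on 8. Calls required an adjusted p under 0.01 together with a log2 fold change past 1 in size. Ratios against a group that had some counts but no more than 3 in any library carry 95% intervals for counting error only. Folds against a group without counts are lower bounds from 3 counts over the group. Members with a mean of 1 CPM in a group were named with values, and genes of other lists only among the 3 most abundant of a list. CSF2RB, CXCR1, CXCR2 and the genes that overlap members were chosen after their values were seen. The members and lists were chosen with earlier results of these data known. On simulated data, edgeR gave an adjusted p under 0.01 for 46 to 50 of 50 genes changed 4-fold and 38 to 48 of 50 changed 2-fold, per direction and comparison, with 2 false calls between the lines and 0 in the other comparisons. The simulated spread was small and the same for all genes, and the changed genes were drawn only from those well above the floor. Recovery was scored on the adjusted p alone, without the fold change rule of the calls. These figures therefore do not cover members near the floor. Alternatives were DESeq2 1.42.0, RLE size factors, library size only, 2 other filters, a replicate block, 1 fit of all libraries, 2 other call rules and leaving out each library. Deviations of libraries sharing a replicate number correlated with r between -0.012 and 0.055, so the numbers were not taken as pairs. The values of 1 gene of the partner lists are not reported here.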

Additional observations from a re-analysis of the deposited data

Results flagged for a closer look

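For 13 members the response to corin differed between the cell lines by edgeR's interaction test, given here as the response in 1205Lu-R minus that in 451Lu-R on the log2 scale. It was greater in 1205Lu-R for IL16 (6.81), CCL20 (5.93), IL17D (2.65), CX3CL1 (2.04) and IL6R (1.53). It was lower in 1205Lu-R for CCL2 (-5.99), IL15RA (-5.00), IL15 (-4.00), IL18R1 (-2.88), IL4R (-2.13), IL6ST (-1.28), IL1R1 (-1.22) and IL17RA (-1.12). The sizes for CCL2, IL15RA and CCL20 rest on a DMSO group without a count, and that for IL15 on a DMSO group at the floor. The calls on CCL20 and IL15RA were each lost when any 1 of 3 libraries was left out.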

How the results depend on the processing

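Of 82 calls on named members, 68 held in every alternative fit that gave the gene an adjusted p. The other 14 were lost in at least 1 such fit. The 2 other call rules were applied to the counts of members and not to these single calls. With an adjusted p under 0.05 as the sole rule, 451Lu-R had 8 members lower with corin, and 1205Lu-R had 32 higher and 6 lower. With a 4-fold change and an adjusted p under 0.001 required, 451Lu-R had 2 lower, 1205Lu-R had 11 higher and 0 lower, 7 members differed in response, and 5 were lower in 1205Lu-R with DMSO. Scaling by library size alone left 1 member that fell in 1205Lu-R, as did leaving out each library in turn (1 to 1), and library-size scaling put the median difference in response of all genes at 0.196 (-0.0126 with TMM). The difference in the response of IL11 turned to -3.51 without 451Lu-R DMSO replicate 1, and was 1.42 without DMSO replicate 2. With the replicate block, 451Lu-R had 17 members higher and 4 lower, 1205Lu-R had 20 higher and 2 lower, 14 differed in response, and 18 were higher and 8 lower in 1205Lu-R with DMSO. DESeq2 did not call CCL26, IL15 and IL22RA1 in 1205Lu-R or IL18BP in either of its comparisons, nor the difference in response of IL15RA. Depth limits the members with few counts, for which only bounds or intervals are given.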
